A study of Homo sapiens with 4 samples.

Results

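RD and JR1 were compared after SKP2 depletion, with 1 RNA-seq library of RD shSKP2.2 set against 1 library of JR1 shSKP2.2, which were 2 of the 4 libraries in the series. Both are established lines of fusion-negative rhabdomyosarcoma (FN-RMS), a childhood tumor of cells committed to skeletal muscle that keep dividing and do not complete differentiation. Each line was infected with a lentivirus carrying either shSKP2.2, a short hairpin RNA against SKP2, or shSCR, a non-targeting hairpin, and no other genetic change was labelled. All 4 groups therefore carried a lentiviral hairpin vector with puromycin resistance. By the paper's methods JR1 cells were selected with a higher puromycin concentration than RD cells, so line and dose cannot be told apart here. Of hairpins against SKP2 only shSKP2.2 was sequenced, and the time from infection to RNA collection is not given in the sources used here. The question asked of these libraries was how far the lines differed in muscle, cell cycle and immune genes once SKP2 was depleted, and whether the same differences stood between the shSCR libraries. With 1 library per group there was no replicate, so no difference has a replicate error or a p-value, and each pair of values describes 2 libraries.

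SKP2 is the substrate-recognition subunit of an SCF ubiquitin ligase that marks the CDK inhibitor p27 and other brakes of the cell cycle for destruction. In the muscle lineage MYOD1 and MYOG, working with MEF2 factors, switch on the genes of the contractile apparatus as cells leave the cell cycle, while ID proteins and other inhibitors hold that program back. In dividing cells, genes of S phase are driven by E2F factors and those of G2 and M phase by the MuvB, B-MYB and FOXM1 factors. Interferon-stimulated genes are driven by STAT and IRF factors, the latter of which bind GAAA repeats in their promoters.

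Values are TPM, a transcript abundance scaled for gene length and library total, taken after short structural RNA genes were removed and the rest rescaled to one total, and the line difference is RD minus JR1 on the log2(TPM + 1) scale. The added 1 understates the difference of genes at low TPM. Of 39323 listed genes, 3017 short structural RNA genes were removed, since in the deposited TPM they took 69.1% of the RD shSKP2.2 library and 72.1% of the JR1 shSKP2.2 library, and 58.6% and 66.5% of the shSCR libraries of RD and JR1. Genes above 0 numbered 22645 in RD shSKP2.2 and 22005 in JR1 shSKP2.2. Depth cannot be read from TPM, and the counting error of no value can be given. A gene was compared when its mean over both libraries was at least 1 TPM, and its difference was called past the limit when it reached 1 on the log2 scale, which is 2-fold. 15315 genes were compared. Counts and medians of listed genes with shSCR were taken over the same genes, which were chosen by their shSKP2.2 levels. Shares of all genes with shSCR are over another set, the 14971 genes whose mean reached 1 TPM in the shSCR libraries.

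SKP2 itself (chr5:36152067-36184319, GRCh38) stood at 23.9 TPM in RD shSKP2.2 and 9.75 TPM in JR1 shSKP2.2. In the shSCR libraries it stood at 224.2 TPM in RD and 138.7 TPM in JR1. The shSKP2.2 libraries thus held 10.7% of the shSCR level in RD and 7.03% in JR1, and RD kept 2.46-fold more SKP2 transcript than JR1 after depletion against 1.62-fold more without it. How much the remaining SKP2 had to do with any difference described here was not tested.

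Across all compared genes the lines lay close together after SKP2 depletion. The median difference was 0.06, 67.9% of genes lay within 0.5 of 0, and the Pearson r of the levels in RD and JR1 was 0.945 across genes, which are not independent replicates. Past the limit, 965 genes (6.3%) were higher in RD and 779 genes (5.09%) were higher in JR1, so that 55.3% of the genes past the limit were higher in RD. With the TPM as deposited, short structural RNAs included, this share was 66.0%, the genes higher in JR1 numbered 362 and the median of all genes moved from 0.06 to 0.17. Between the shSCR libraries 724 of 14971 genes (4.84%) were higher in RD and 1077 genes (7.19%) were higher in JR1. Of the 965 genes higher in RD with shSKP2.2, 432 (44.8%) were also past the limit with shSCR, and of the 779 genes higher in JR1, 485 (62.3%) were. The line differences with shSKP2.2 and with shSCR share no library, and across genes Pearson's r between them was 0.717 and Spearman's rho 0.641.

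Both libraries carried the muscle lineage. Of 12 lineage markers, 11 were compared and only MYF5 was listed at 0 in every library, and their summed level was 4379 TPM in RD shSKP2.2 and 9955 TPM in JR1 shSKP2.2. Markers of other cell types were detected unevenly. Of 10 haematopoietic markers CD68 alone was compared, at 9.29 TPM in RD and 8.17 TPM in JR1, and PTPRC and CD3E were not compared. Among endothelial markers 2 of 8 were compared, among epithelial markers 3 of 10, among neural markers 4 of 10 and among fibroblast markers 8 of 11. The summed neural markers were 1177 TPM in RD and 937.3 TPM in JR1, and the summed epithelial markers 558.1 and 321.5 TPM. The fibroblast list was uneven, since POSTN stood at 51.1 TPM in RD and 0.29 TPM in JR1 while COL1A2 stood at 0.91 TPM in RD and 16.6 TPM in JR1. The summed fibroblast markers were 5045 TPM in RD, above the summed muscle lineage markers there, and 2232 TPM in JR1, and the part of these markers in the results was not tested. Of 15 markers of the HEK293T line, in which lentiviruses are commonly packaged, 9 were compared, 6 higher in RD and 3 in JR1 with shSKP2.2. Past the limit in RD were 3 of them (NEFM, NEFL and PAX2), with shSKP2.2 (33.3%, where 6.3% of all genes were) and with shSCR. The summed HEK293T markers were 1431 TPM in RD and 903.9 TPM in JR1 with shSKP2.2, and 1194 and 1217 TPM with shSCR. In bulk RNA, fewer cells of a type and less RNA per cell cannot be told apart.

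**Figure D1:**
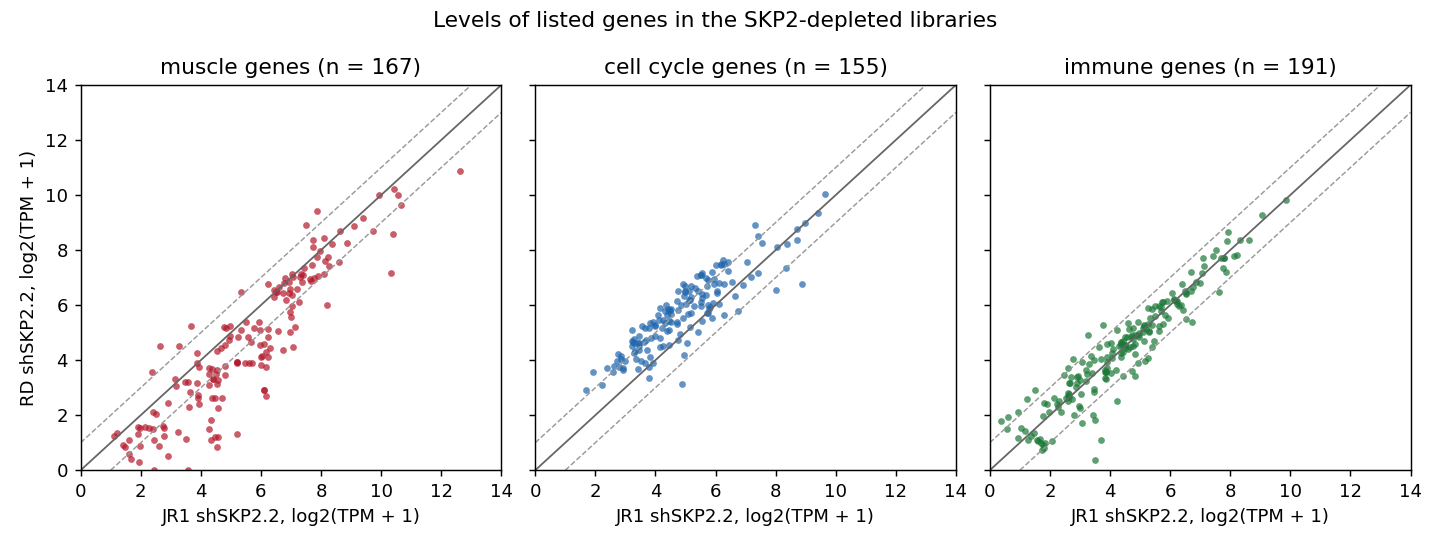
Level of each compared gene in JR1 shSKP2.2 (x axis) and RD shSKP2.2 (y axis), both as log2(TPM + 1), for 167 muscle genes, 155 cell cycle genes and 191 immune genes. The solid line marks equal levels and the dashed lines a difference of 1; 141 muscle genes fall below the solid line, 130 cell cycle genes lie above it and the immune genes straddle it with 101 above.

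The muscle genes were the class that stood higher in JR1. Of 199 listed muscle genes 167 were compared, and 141 of them were higher in JR1. Past the limit, 73 (43.7%) were higher in JR1, where 5.09% of all genes were, and 7 (4.19%) were higher in RD, where 6.3% of all genes were. With the TPM as deposited 47 were past the limit in JR1. The median difference of the class was -0.77, against 0.06 for all genes. Of the 7 past the limit in RD, 6 were inhibitors and progenitor factors and the other was the adhesion receptor BOC. The lists were written with earlier results of these data known, so their counts are descriptions.

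Among the myogenic transcription factors, MEF2C carried the largest difference. MEF2C (chr5:88717117-88904105), a MADS-box factor that acts beside MYOD1 and MYOG on late muscle genes, stood at 6.63 TPM in RD shSKP2.2 and 67.2 TPM in JR1 shSKP2.2, and at 2.37 and 5.25 TPM in the shSCR libraries. JR1 shSKP2.2 was thus far above the other libraries, 10.1-fold above RD shSKP2.2 where JR1 shSCR was 2.22-fold above RD shSCR. MEF2A was 34.01 TPM in RD and 75.1 TPM in JR1 after SKP2 depletion. MYOG (chr1:203083129-203086012), the factor of early differentiation, stood at 188.9 TPM in RD shSKP2.2, 384.1 TPM in JR1 shSKP2.2, 76.2 TPM in RD shSCR and 161.0 TPM in JR1 shSCR. JR1 held about the same multiple of RD in both conditions, 2.03-fold with shSKP2.2 and 2.11-fold with shSCR, and the difference of -1.02 fell short of the limit with the TPM as deposited (-0.87). MYOD1, the lineage-defining factor, stood at 303.6 TPM in RD and 469.8 TPM in JR1 with shSKP2.2, and at 210.1 and 300.3 TPM with shSCR, a difference of -0.63 and -0.51. SIX4, TEAD4 and SRF, which act before or beside the MYOD1 family, lay within 0.5 of 0. MYF5 and MYOCD were not compared. Of the 10 compared factors 9 were higher in JR1. Past the limit were 3 of them (30%, where 5.09% of all genes were), and MEF2C alone with the TPM as deposited. The list median was -0.58, where the same genes had -0.26 with shSCR.

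The sarcomere carried the widest muscle differences. In the thick filament, the thin filament and the Z-disc with its assembly factors, 59 of 64 compared genes were higher in JR1. Past the limit in JR1 were 38 (59.4%, where 5.09% of all genes were) and none in RD, with a median of -1.09. Summed over these genes, RD shSKP2.2 held 6615 TPM and JR1 shSKP2.2 held 15950 TPM, 2.41-fold more, where RD shSCR held 3573 TPM and JR1 shSCR 5568 TPM, 1.56-fold more. With shSCR 31 of the same genes (48.4%) were past the limit in JR1, where 7.19% of all genes were. In both conditions 25 genes were so, 65.8% of the 38 and 80.6% of the 31. The 64 genes were chosen by shSKP2.2 levels, and those near 0 with shSCR, such as MYBPC1, could not be past the limit there.

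MYH3 (chr17:10628527-10678347), the embryonic myosin heavy chain, stood at 5.53 TPM in RD shSKP2.2, 71.3 TPM in JR1 shSKP2.2, 4.76 TPM in RD shSCR and 25.03 TPM in JR1 shSCR. JR1 was above RD in both conditions, 12.9-fold with shSKP2.2 and 5.26-fold with shSCR. MYH2, an adult fast myosin heavy chain, stood at 2.56 TPM in RD and 19.03 TPM in JR1 with shSKP2.2, and at 0.99 and 1.76 TPM with shSCR. MYH8, the perinatal chain, was the nearest of the named myosin heavy chains between the lines, at 11.5 TPM in RD and 21.97 TPM in JR1 with shSKP2.2 and at 1.59 and 1.13 TPM with shSCR. The named myosin heavy chain genes lie in a cluster on chromosome 17 and are alike in sequence, so any reads shared between them would make single values less certain. MYH1 and MYH4, adult fast chains, were not compared.

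Of the light chains, MYLPF, the fast regulatory chain, stood at 142.4 TPM in RD shSKP2.2 and 1271 TPM in JR1 shSKP2.2, 8.92-fold apart, and at 37.65 and 264.8 TPM with shSCR, 7.03-fold apart. MYL1, a fast essential chain, stood at 384.1 TPM in RD and 1341 TPM in JR1 with shSKP2.2, where the shSCR libraries held 17.15 and 102.5 TPM. RD shSKP2.2 was therefore above JR1 shSCR for MYL1 but below it for MYLPF. MYBPC1, the slow form of myosin binding protein C, was the muscle gene with the widest difference, -3.89. It stood at 1.49 TPM in RD shSKP2.2 and 35.98 TPM in JR1 shSKP2.2, and was near 0 in both shSCR libraries, at 0 TPM in RD and 0.03 TPM in JR1.

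In the thin filament, ACTC1, the actin of embryonic skeletal and adult heart muscle, was the most abundant sarcomere transcript, at 1890 TPM in RD shSKP2.2, 6241 TPM in JR1 shSKP2.2, 723.9 TPM in RD shSCR and 1502 TPM in JR1 shSCR. TNNC2, the calcium-binding fast troponin C, stood at 19.6 TPM in RD and 104.4 TPM in JR1 with shSKP2.2, 5.34-fold apart, and at 6.11 and 9.58 TPM with shSCR, 1.57-fold apart. TNNT3 and TNNI2, the fast troponin T and troponin I, stood at 19.03 and 10.97 TPM in JR1 shSKP2.2, while RD shSKP2.2 held 1.13 TPM of TNNT3 and TNNI2 was listed at 0 there. The slow troponin genes were not alike. TNNT1, the slow troponin T, lay at 571.1 TPM in RD and 669.1 TPM in JR1, within 0.5 of equal. TNNC1, the slow troponin C, was past the limit in JR1 with a difference of -2.77. ACTA1, the adult skeletal actin, was low in every library, with 5.63 TPM in JR1 shSKP2.2 as its highest value.

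In the Z-disc and assembly list 30 of 34 compared genes were higher in JR1 and 20 (58.8%) were past the limit, where 5.09% of all genes were. UNC45B, a myosin chaperone, stood at 12.5 TPM in RD shSKP2.2 and 71.5 TPM in JR1 shSKP2.2, and MYOM3, an M-band protein, at 1.20 and 10.3 TPM. MYOZ2, which ties calcineurin to the Z-disc, stood at 13.3 TPM in RD and 62.4 TPM in JR1 with shSKP2.2, and at 2.03 and 12.03 TPM with shSCR. Here the lines were as far apart without SKP2 depletion, since the list median was -1.07 with shSKP2.2 and -1.24 with shSCR. DES, which encodes the intermediate filament desmin and is switched on early in the lineage, stood at 140.5 TPM in RD and 128.9 TPM in JR1.

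Promoters of these lists were searched for CTANNNNTAG, a loose form of the MEF2 site in which N is any base. Both strands of 300 bases were read, 250 before and 50 after the transcript start given by RefSeq. MEF2 sites hold A or T at the N positions, so a match need not be a MEF2 site. The letters were present in 2.83% of all 27305 promoters, in 21.1% of those of the sarcomere lists (12 of 57) and in 31.03% of those of the Z-disc list (9 of 29). Of the 10 genes of these 12 that were compared, 9 were higher in JR1 and 7 past the limit, and OBSL1 was the one higher in RD. Of all 64 compared sarcomere genes, with or without the letters, 59 were higher in JR1 and 38 (59.4%) past the limit. The E-box letters CAGCTG, searched in the same way, were present in 17.7% of all promoters. They were present in 38.6% of those of the sarcomere lists (22 of 57) and in 44.8% of those of the Z-disc list (13 of 29). A match describes the letters in this window and says nothing of binding. The promoters of MYOZ2 and LDB3, a Z-disc adaptor at 18.8 TPM in RD shSKP2.2 and 71.6 TPM in JR1 shSKP2.2, are shown with the matching letters in capitals (build GRCh38.p14). They had the widest line differences among genes with the letters CTANNNNTAG. The match in LDB3 holds a C at an N position.
MYOZ2 promoter, chr4:119135582-119135881, plus strand: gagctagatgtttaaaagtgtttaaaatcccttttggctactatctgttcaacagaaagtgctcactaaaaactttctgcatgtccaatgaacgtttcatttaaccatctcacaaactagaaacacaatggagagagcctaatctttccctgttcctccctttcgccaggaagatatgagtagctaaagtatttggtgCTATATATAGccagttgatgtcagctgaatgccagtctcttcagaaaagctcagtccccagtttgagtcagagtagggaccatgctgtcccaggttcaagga
LDB3 promoter, chr10:86668261-86668560, plus strand: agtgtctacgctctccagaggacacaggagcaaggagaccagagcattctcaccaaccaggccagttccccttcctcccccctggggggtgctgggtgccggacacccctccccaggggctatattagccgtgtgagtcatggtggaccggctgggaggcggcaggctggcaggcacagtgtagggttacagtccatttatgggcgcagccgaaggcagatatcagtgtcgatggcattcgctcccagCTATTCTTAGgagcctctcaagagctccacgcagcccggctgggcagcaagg

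**Figure D2:**
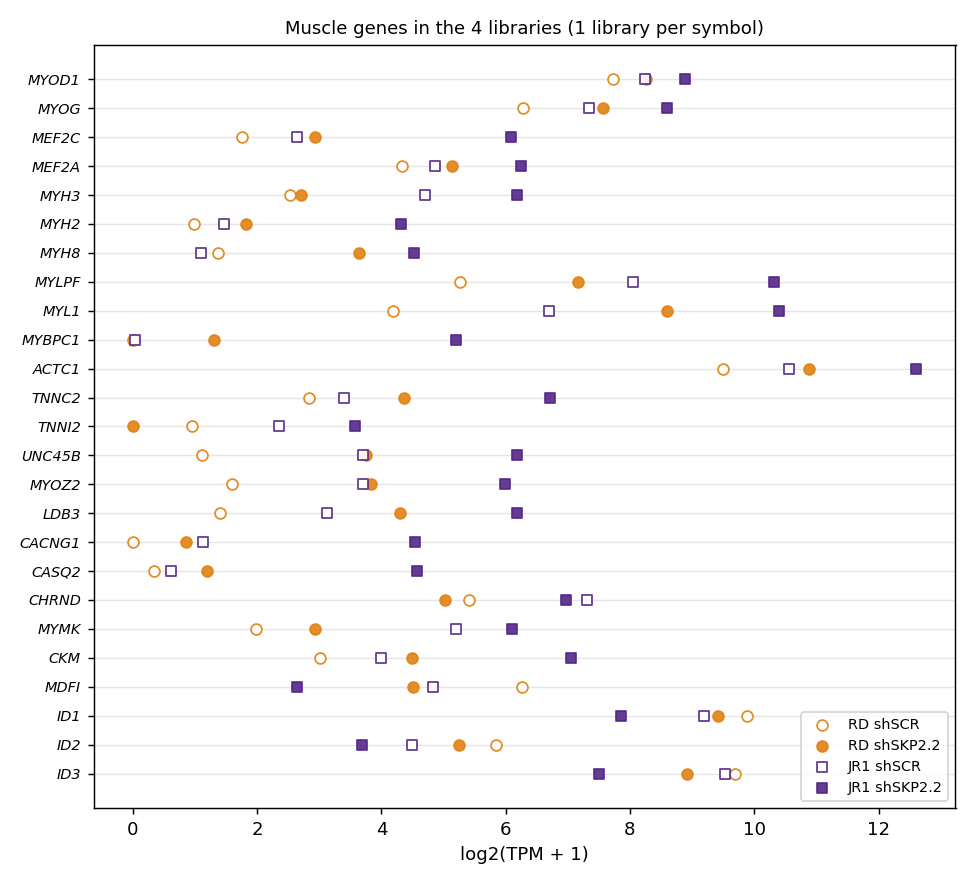
Levels of 25 muscle genes in the 4 libraries as log2(TPM + 1), with 1 library per symbol (circles RD, squares JR1, open shSCR, filled shSKP2.2). For MEF2C, MYH3, MYLPF, MYL1, ACTC1, TNNC2 and CKM the JR1 shSKP2.2 square lies to the right of all other symbols, while for MDFI, ID1, ID2 and ID3 it lies to the left of them.

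Genes of excitation and calcium release followed with a median of -1.01. Of 24 compared genes 21 were higher in JR1 and 12 (50%) past the limit, where 5.09% of all genes were. CACNG1, a subunit of the skeletal calcium channel, stood at 0.81 TPM in RD shSKP2.2 and 22.3 TPM in JR1 shSKP2.2, and was listed at 0 in RD shSCR and at 1.19 TPM in JR1 shSCR. CASQ2, a calcium store protein, stood at 1.29 and 22.9 TPM, and TRDN, which anchors it, at 1.29 and 20.9 TPM. These genes were past the limit with shSKP2.2 from levels near 1 TPM in RD, where a small change in TPM moves the difference. RYR1, the calcium release channel, was at 99.0 TPM in RD and 96.1 TPM in JR1, and ATP2A2, a calcium pump, at 296.8 and 329.8 TPM.

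Among the genes of the nerve-muscle synapse 6 of 14 (42.9%, where 5.09% of all genes were) were past the limit in JR1 and the median was -0.67. With shSCR 7 of the 14 (50%, where 7.19% of all genes were) were past it in JR1 and the median was -0.98, further toward JR1. CHRND, the delta subunit of the acetylcholine receptor, stood at 31.6 TPM in RD shSKP2.2 and 124.1 TPM in JR1 shSKP2.2, and at 41.5 and 158.2 TPM with shSCR. The lines were 3.93-fold apart with shSKP2.2 and 3.81-fold apart with shSCR. MYMK, the fusion protein myomaker, stood at 6.63 TPM in RD and 67.6 TPM in JR1 with shSKP2.2, and at 2.95 and 35.9 TPM with shSCR, which is 10.2-fold and 12.2-fold. MYMX, its partner myomixer, stood at 5.24 TPM in RD and 14.05 TPM in JR1 with shSKP2.2, JR1 shSCR was highest with 36.3 TPM, and with the TPM as deposited MYMX fell short of the limit. In the fusion and adhesion list BOC, a receptor that acts with cadherins, was the 1 gene past the limit in RD, 2.27-fold above JR1 at 88.7 TPM.

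In energy metabolism 7 of 17 compared genes (41.2%) were past the limit in JR1, where 5.09% of all genes were, and none in RD. CKM, the muscle creatine kinase, stood at 21.5 TPM in RD shSKP2.2 and 131.6 TPM in JR1 shSKP2.2, 6.11-fold apart, and at 7.05 and 14.95 TPM with shSCR, 2.12-fold apart. COX6A2, a muscle subunit of cytochrome oxidase, was listed at 0 in RD shSKP2.2 and at 4.44 TPM in JR1 shSKP2.2, and MB, myoglobin, stood at 3.82 and 22.9 TPM. ALDOA and LDHB, which serve most tissues, lay within 0.5 of equal.

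The inhibitory and progenitor factors were split. Of 20 compared genes 6 (30%) were past the limit in RD and 2 (10%) in JR1, where 6.3% and 5.09% of all genes were. The list median was -0.12, and its sign turned with the TPM as deposited (0.027). MDFI, which holds MYOD1 family proteins in the cytoplasm, stood at 21.8 TPM in RD shSKP2.2, 5.27 TPM in JR1 shSKP2.2, 75.7 TPM in RD shSCR and 27.5 TPM in JR1 shSCR. ID1, ID2 and ID3 encode proteins that bind the E-protein partners of MYOD1 and keep them off DNA. ID1 stood at 680.8 TPM in RD shSKP2.2 and 230.1 TPM in JR1 shSKP2.2, and at 944.7 and 585.8 TPM with shSCR. ID3 stood at 485.0 TPM in RD and 179.6 TPM in JR1 with shSKP2.2, and at 827.9 and 738.8 TPM with shSCR, so that the lines were 2.7-fold apart with shSKP2.2 and 1.12-fold apart with shSCR. ID2 was 3.12-fold higher in RD with shSKP2.2 and 2.61-fold with shSCR. ID4, by contrast, was low in both lines, at 1.91 TPM in RD and 3.83 TPM in JR1. PAX7, the satellite cell factor, stood at 10.9 TPM in RD and 4.16 TPM in JR1 with shSKP2.2 and was past the limit in RD, and it was 25.96 and 14.4 TPM with shSCR. HDAC9 and HES1 were the 2 genes past the limit in JR1, HDAC9 with 13.7 TPM in RD and 43.65 TPM in JR1, and HES1 fell short of it with the TPM as deposited.

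**Figure D3:**
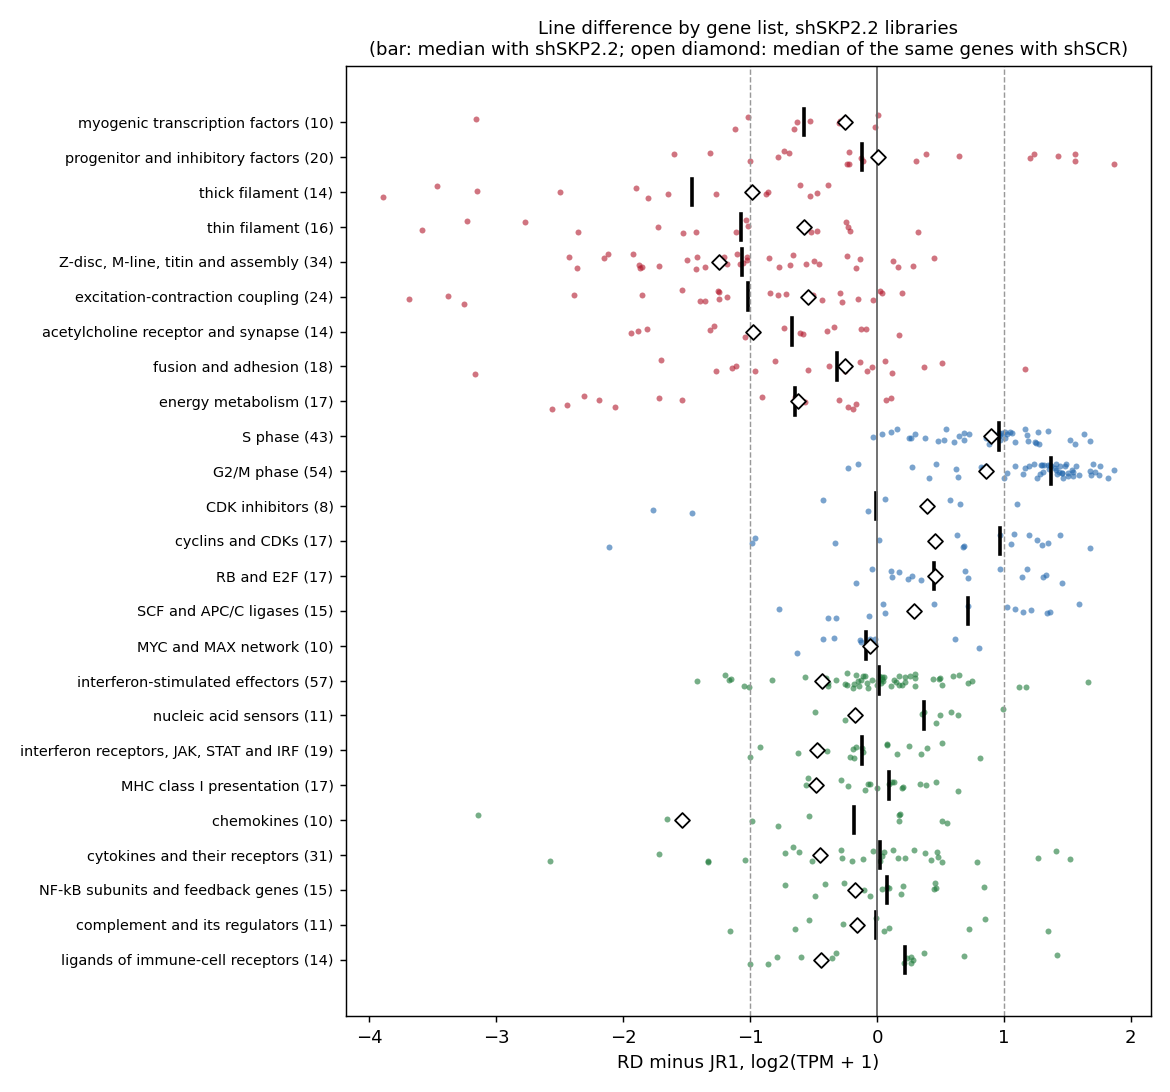
Line difference, RD minus JR1 on the log2(TPM + 1) scale, of each compared gene with shSKP2.2 (points) for each list of at least 5 compared genes, whose number is in brackets (muscle red, cell cycle blue, immune green). Bars give the list medians with shSKP2.2 and open diamonds those of the same genes with shSCR; the 9 muscle medians lie below 0, the S phase and G2/M medians at 0.96 and 1.37, and the 9 immune medians between -0.18 and 0.37.

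Cell cycle genes stood on the opposite side. Of 157 listed genes 155 were compared, 130 of them were higher in RD, and 74 (47.7%) were past the limit in RD, where 6.3% of all genes were. CCND2, CDKN2A and CDKN2B were the 3 genes (1.94%) past it in JR1, where 5.09% of all genes were. The class median was 0.97 with shSKP2.2 and 0.72 with shSCR. With shSCR 45 genes of the class were past the limit in RD, and 40 genes were so in both conditions, 54.1% of the 74 and 88.9% of the 45.

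The G2/M list carried the class. Of its 54 genes 52 were higher in RD and 43 (79.6%) were past the limit, where 6.3% of all genes were. With shSCR 20 (37.0%) were past it, where 4.84% of all genes were. The median was 1.37 with shSKP2.2 and 0.86 with shSCR. Summed over the list, RD shSKP2.2 held 5948 TPM and JR1 shSKP2.2 held 3087 TPM, 1.93-fold apart, where RD shSCR and JR1 shSCR held 6916 and 4175 TPM, 1.66-fold apart. NEK2, a kinase of the centrosome, stood at 32.8 TPM in RD shSKP2.2, 8.28 TPM in JR1 shSKP2.2, 26.7 TPM in RD shSCR and 12.9 TPM in JR1 shSCR. MKI67, which encodes the proliferation marker Ki-67, stood at 106.6 TPM in RD and 29.4 TPM in JR1 with shSKP2.2, 3.62-fold apart, and at 122.8 and 43.4 TPM with shSCR, 2.83-fold apart. For MKI67 both RD libraries thus lay above both JR1 libraries. TACC3, which stabilises spindle microtubules, stood at 90.3 and 25.95 TPM with shSKP2.2 and at 115.2 and 53.65 TPM with shSCR. CBX5 and JPT1, the only G2/M members higher in JR1, lay within 0.5 of equal.

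In the S phase list 42 of 43 genes were higher in RD, where 55.1% of all genes were. Past the limit were 18 (41.9%, where 6.3% of all genes were), with a median of 0.96 that stood at 0.90 with shSCR. CCNE2, a cyclin that opens S phase, stood at 11.001 TPM in RD shSKP2.2 and 2.76 TPM in JR1 shSKP2.2, and at 11.2 and 3.34 TPM with shSCR. RRM2, the small subunit of ribonucleotide reductase, stood at 143.6 and 45.7 TPM with shSKP2.2 and at 174.3 and 68.1 TPM with shSCR, and TYMS, thymidylate synthase, at 134.2 and 44.98 TPM with shSKP2.2 and at 268.4 and 95.9 TPM with shSCR. MCM7, of the replicative helicase, was near equal at 431.8 and 419.7 TPM. The S phase difference was thus about as wide in the shSCR libraries, while the G2/M difference was wider with shSKP2.2, and the change from one condition to the other was not tested.

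The letters TTTGAA, the core of the cell cycle homology region through which MuvB complexes reach G2/M promoters, were present on either strand in 15.4% of all promoters of the same length, in 68.9% of those of the G2/M list (31 of 45) and in 3.03% of those of the S phase list (1 of 33). All 31 G2/M genes with the letters were compared, and 30 were higher in RD, 25 of them past the limit. Of all 54 genes of the G2/M list, with or without the letters, 52 were higher in RD and 43 (79.6%) past the limit. The promoters of MKI67 and of TOP2A, a topoisomerase of dividing cells at 101.4 TPM in RD shSKP2.2 and 30.5 TPM in JR1 shSKP2.2, are shown because these genes had the widest line differences among those with the letters, which are in capitals (build GRCh38.p14).
MKI67 promoter, chr10:128126374-128126673, minus strand: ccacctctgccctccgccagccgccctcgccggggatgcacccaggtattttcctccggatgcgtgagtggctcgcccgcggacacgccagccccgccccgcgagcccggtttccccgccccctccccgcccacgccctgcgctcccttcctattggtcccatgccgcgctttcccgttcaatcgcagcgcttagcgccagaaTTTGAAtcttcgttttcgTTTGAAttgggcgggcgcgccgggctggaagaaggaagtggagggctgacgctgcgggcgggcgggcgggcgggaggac
TOP2A promoter, chr17:40417847-40418146, minus strand: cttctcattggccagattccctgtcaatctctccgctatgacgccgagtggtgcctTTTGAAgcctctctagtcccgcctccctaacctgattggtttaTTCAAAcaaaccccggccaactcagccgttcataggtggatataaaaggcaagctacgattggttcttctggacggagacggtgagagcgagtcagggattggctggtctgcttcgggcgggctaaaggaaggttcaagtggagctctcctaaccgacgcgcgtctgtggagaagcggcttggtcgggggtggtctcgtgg

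The factors above these genes differed in the same direction. FOXM1 stood at 126.5 TPM in RD shSKP2.2 and 50.4 TPM in JR1 shSKP2.2, and MYBL2, which encodes B-MYB, at 148.0 and 58.1 TPM. With shSCR FOXM1 stood at 178.3 and 80.8 TPM and MYBL2 at 252.7 and 111.0 TPM. E2F1 and E2F2, activators of S phase genes, were past the limit in RD, and E2F4 and RBL2, which serve in repressor complexes, lay within 0.5 of equal. RB1, the retinoblastoma protein gene, stood at 14.01 TPM in RD and 11.6 TPM in JR1. Of 17 genes of the RB and E2F list 5 (29.4%) were past the limit in RD, where 6.3% of all genes were, and none in JR1. In the SCF and APC/C list 7 of 15 (46.7%) were past the limit in RD, SKP2 among them, where 6.3% of all genes were. CDC20, the mitotic activator of APC/C, stood at 196.9 TPM in RD and 75.8 TPM in JR1, and CKS1B, the cofactor of SKP2, at 360.1 and 168.9 TPM. The core subunits SKP1, CUL1 and RBX1 lay within 0.5 of equal.

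Of 17 compared cyclins and CDKs, 8 (47.1%) were past the limit in RD and 1 (5.88%) in JR1. Of all genes 6.3% and 5.09% were. CCNB1, CCNB2, CCNA2 and CCNE2 were past the limit in RD, with CCNB1 at 120.8 TPM in RD shSKP2.2 and 52.3 TPM in JR1 shSKP2.2. The G1 cyclin CCND2 was the reverse, at 108.5 TPM in RD shSKP2.2, 473.4 TPM in JR1 shSKP2.2, 99.3 TPM in RD shSCR and 808.0 TPM in JR1 shSCR, 4.36-fold higher in JR1 with shSKP2.2 and 8.14-fold with shSCR. CCND1 and CDK6 were higher in JR1 by just under the limit, at -0.96 and -0.98, and CCND3 was near equal at 511.3 and 505.0 TPM. D cyclins and CDK6 start the cycle by acting on RB1, whereas the cyclins higher in RD act from S phase to mitosis.

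The CDK inhibitors, among them the direct targets of SKP2, did not follow either pattern. CDKN1A (chr6:36676463-36687332), which encodes p21, stood at 650.3 TPM in RD shSKP2.2, 684.6 TPM in JR1 shSKP2.2, 218.0 TPM in RD shSCR and 330.9 TPM in JR1 shSCR. Both shSKP2.2 libraries were above both shSCR libraries, and the difference of -0.07 between the lines turned to 0.07 with the TPM as deposited. CDKN1B, which encodes p27, was 35.8 TPM in RD and 34.2 TPM in JR1 with shSKP2.2 and 37.6 and 33.3 TPM with shSCR, so all 4 libraries were close. CDKN1C, which encodes p57, was 9.25 TPM in RD and 12.8 TPM in JR1 with shSKP2.2 and 10.4 and 6.48 TPM with shSCR. SKP2 acts on its targets as proteins, which were not measured in these libraries. CDKN2A, the locus of p16 and ARF, stood at 93.2 TPM in RD shSKP2.2 and 257.8 TPM in JR1 shSKP2.2, and CDKN2B, its neighbour that encodes p15, at 7.70 and 28.6 TPM. JR1 was also higher for both with shSCR, CDKN2A by 3.51-fold and CDKN2B by 4.49-fold. CDKN2C, which encodes p18, was 2.18-fold higher in RD with shSKP2.2 and 2.5-fold with shSCR.

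In the MYC and MAX network no gene was past the limit, with MYC at 129.8 TPM in RD and 143.0 TPM in JR1.

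**Figure D4:**
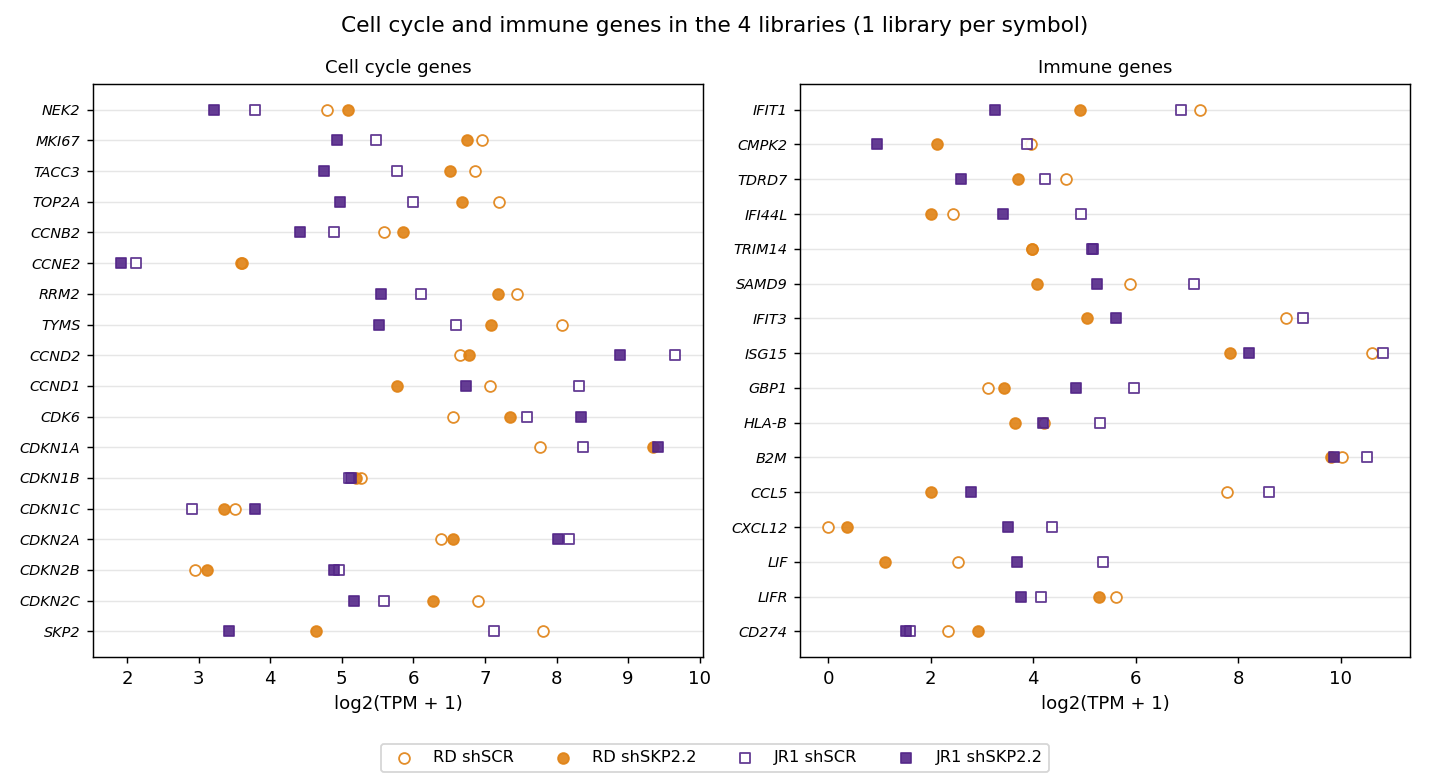
Levels of 18 cell cycle genes (left) and 16 immune genes (right) in the 4 libraries as log2(TPM + 1), with 1 library per symbol (circles RD, squares JR1, open shSCR, filled shSKP2.2). MKI67, TOP2A and CCNE2 keep both RD circles to the right of both JR1 squares, CDKN1A has both filled symbols together at the right, and IFIT3, ISG15 and CCL5 have both open symbols at the right of both filled ones.

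Immune genes lay near equal after SKP2 depletion. Of 252 listed genes 191 were compared, 101 were higher in RD and 90 in JR1, and the class median was 0.04. Past the limit, 9 genes (4.71%) were higher in RD, where 6.3% of all genes were, and 17 genes (8.90%) were higher in JR1, where 5.09% of all genes were. With the TPM as deposited these counts were 4 in RD and 6 in JR1. Between the shSCR libraries the same genes had a median of -0.44, with 4 past the limit in RD (2.09%, where 4.84% of all genes were) and 38 past it in JR1 (19.9%, where 7.19% of all genes were). Of these 38, 15 (39.5%) were still past the limit with shSKP2.2, and they made up 88.2% of the 17. The line difference lay further toward RD with shSKP2.2 than with shSCR for 165 of the 191 genes (86.4%), beside 60.4% of all compared genes and 52.7% of the muscle genes. The constant added to TPM understates differences at low TPM, so an unchanged ratio can count as a move toward RD where levels fell with shSKP2.2. CCL5 was counted although JR1 stood at a higher multiple of RD with shSKP2.2. The count was not repeated with a smaller constant. Summed TPM of the immune lists, in which abundant genes weigh most, was 9802 in RD and 9808 in JR1 with shSKP2.2. With shSCR it was 14767 and 19778. The change in line difference between the conditions was not tested.

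The interferon-stimulated effectors show the pattern. Of 57 compared genes 41 lay within 0.5 of equal with shSKP2.2, where 67.9% of all genes did. Past the limit were 3 in RD (5.26%, where 6.3% of all genes were) and 6 in JR1 (10.5%, where 5.09% were). With shSCR 11 were past it in JR1 (19.3%, where 7.19% of all genes were) and none in RD. The median was 0.02 with shSKP2.2, which became 0.15 with the TPM as deposited, and -0.44 with shSCR. Summed over the list, RD shSKP2.2 held 3490 TPM and JR1 shSKP2.2 3349 TPM, where RD shSCR held 7781 TPM and JR1 shSCR 9982 TPM. ISG15, a ubiquitin-like modifier, stood at 227.2 TPM in RD and 296.8 TPM in JR1 with shSKP2.2. IFIT1, which binds foreign RNA caps, was the member most above in RD, at 29.3 TPM in RD shSKP2.2, 8.60 TPM in JR1 shSKP2.2, 151.9 TPM in RD shSCR and 116.8 TPM in JR1 shSCR. JR1 shSKP2.2 was the lowest library for IFIT1, and the lines were 3.41-fold apart with shSKP2.2 and 1.3-fold apart with shSCR. IFI44L was the member most above in JR1, at 3.01 TPM in RD shSKP2.2 and 9.71 TPM in JR1 shSKP2.2, and at 4.44 and 29.6 TPM with shSCR. With the TPM as deposited IFI44L, SAMD9 and TRIM14 fell short of the limit in JR1, and CMPK2 and TDRD7, past it in RD beside IFIT1, fell short there too. SAMD9, an antiviral restriction factor, stood at 15.95 TPM in RD and 37.02 TPM in JR1 with shSKP2.2 and at 58.4 and 139.5 TPM with shSCR, and TRIM14, an adaptor of antiviral signaling, at 14.7 and 35.02 TPM with shSKP2.2 and at 14.7 and 34.6 TPM with shSCR. MX2, RSAD2 and XAF1 were among the 7 members not compared.

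The interferon-stimulated response element, searched as GAAANNGAAA on both strands, was present in 3.65% of all promoters of the same length, in 59.2% of those of the effector list (29 of 49) and in 56.25% of those of the MHC class I list (9 of 16). These letters may share bases with a TTTGAA match. The list shared the motif and not a direction, since of 27 compared effectors with it 15 were higher in JR1 and 12 in RD. The promoters of IFI44L and IFIT1, the members with the motif most above in JR1 and most above in RD, are shown with the matching letters in capitals (build GRCh38.p14), and each holds 2 matches.
IFI44L promoter, chr1:78620198-78620497, plus strand: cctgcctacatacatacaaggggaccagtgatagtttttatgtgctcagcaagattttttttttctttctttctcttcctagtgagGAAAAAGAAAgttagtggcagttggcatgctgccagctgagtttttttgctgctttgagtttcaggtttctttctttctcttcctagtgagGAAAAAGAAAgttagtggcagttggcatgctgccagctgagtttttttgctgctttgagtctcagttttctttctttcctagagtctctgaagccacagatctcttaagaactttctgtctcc
IFIT1 promoter, chr10:89392373-89392672, plus strand: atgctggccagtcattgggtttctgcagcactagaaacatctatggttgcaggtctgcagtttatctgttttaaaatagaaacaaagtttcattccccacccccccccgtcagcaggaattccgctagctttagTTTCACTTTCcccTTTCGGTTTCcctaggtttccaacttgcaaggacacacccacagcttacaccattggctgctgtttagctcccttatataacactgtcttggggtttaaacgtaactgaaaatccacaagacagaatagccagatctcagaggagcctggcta

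Above the effectors, no nucleic acid sensor was past the limit. IFIH1, the sensor MDA5, was closest to it in RD, at 9.93 TPM in RD and 4.48 TPM in JR1 with shSKP2.2 and at 26.8 and 33.6 TPM with shSCR. STING1 stood at 41.2 TPM in RD and 29.5 TPM in JR1. Among receptors, kinases and factors of interferon signaling 1 gene of 19 (5.26%) was past the limit in JR1, near the 5.09% of all genes. This was IFNAR2, a chain of the type I interferon receptor, at 9.87 TPM in RD and 20.75 TPM in JR1. IFNAR2 was not past the limit with the TPM as deposited. STAT2, a factor of the type I response, stood at 45.1 TPM in RD and 59.6 TPM in JR1, within 0.5 of equal. GBP1, a guanylate-binding protein that answers interferon gamma, stood at 9.77 TPM in RD shSKP2.2 and 27.6 TPM in JR1 shSKP2.2, and at 7.70 and 61.98 TPM with shSCR.

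Antigen presentation was near equal. None of 17 compared genes of MHC class I presentation was past the limit with shSKP2.2. With shSCR 4 (23.5%) were past it in JR1, where 7.19% of all genes were. The median was 0.09 with shSKP2.2 and -0.48 with shSCR. HLA-B stood at 11.6 TPM in RD and 17.4 TPM in JR1, and B2M, the chain shared by class I molecules, at 896.8 and 932.9 TPM. HLA genes are alike in sequence and differ between people, so their values depend on how reads were assigned. Genes of MHC class II were mostly not compared, with 3 of 10 above the minimum and HLA-DRA, CIITA and CD74 not among them.

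Among the immune lists the medians of both conditions were furthest apart for chemokines. With shSCR 7 of 10 compared chemokines (70%) were past the limit in JR1, where 7.19% of all genes were, and the median was -1.54. With shSKP2.2 only CXCL12 and CXCL1 were (20%, where 5.09% of all genes were), and the median was -0.18. The sign of that median turned with the TPM as deposited (0.20), with a minimum of 5 TPM (0.17) and with no minimum (0.011). CXCL12, which guides cells carrying CXCR4, stood at 0.29 TPM in RD shSKP2.2 and 10.4 TPM in JR1 shSKP2.2, and at 0 and 19.7 TPM with shSCR. CCL5, an attractant of T cells, stood at 3.04 TPM in RD and 5.95 TPM in JR1 with shSKP2.2 and at 218.5 and 387.3 TPM with shSCR. JR1 was 1.96-fold above RD for CCL5 with shSKP2.2 and 1.77-fold with shSCR, so the lines kept their order while both shSKP2.2 libraries were far below both shSCR libraries.

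Among cytokines and their receptors 3 of 31 were past the limit in RD (9.68%, where 6.3% of all genes were) and 5 in JR1 (16.1%, where 5.09% were). With shSCR 3 were past it in RD and 9 in JR1. LIF stood at 1.16 TPM in RD shSKP2.2 and 11.9 TPM in JR1 shSKP2.2, whereas LIFR, its receptor, stood at 38.25 and 12.65 TPM. The same order held with shSCR, where LIF stood at 4.81 TPM in RD and 39.9 TPM in JR1 and LIFR at 48.2 and 16.9 TPM. TNFRSF10D, a decoy receptor of TRAIL, was also past the limit in RD, and IL11, IL32, TGFB3 and TGFB1 the others in JR1, of which IL32 fell short with the TPM as deposited. None of 15 compared NF-kB genes was past the limit. CFI, a protease that inactivates complement, stood at 5.02 TPM in RD and 1.36 TPM in JR1 with shSKP2.2, past the limit in RD but not with the TPM as deposited. Of the ligands of immune-cell receptors CD274, which encodes PD-L1, was the 1 past the limit in RD, at 6.63 TPM against 1.86 TPM, and PDCD1LG2, which encodes PD-L2, the 1 past it in JR1, at 0.68 TPM against 2.37 TPM. Each is 7.14% of 14 compared ligands, near the 6.3% and 5.09% of all genes, and PDCD1LG2 fell short of the limit with the TPM as deposited and with RMRP, RPPH1 and transfer RNA genes kept.

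**Figure D5:**
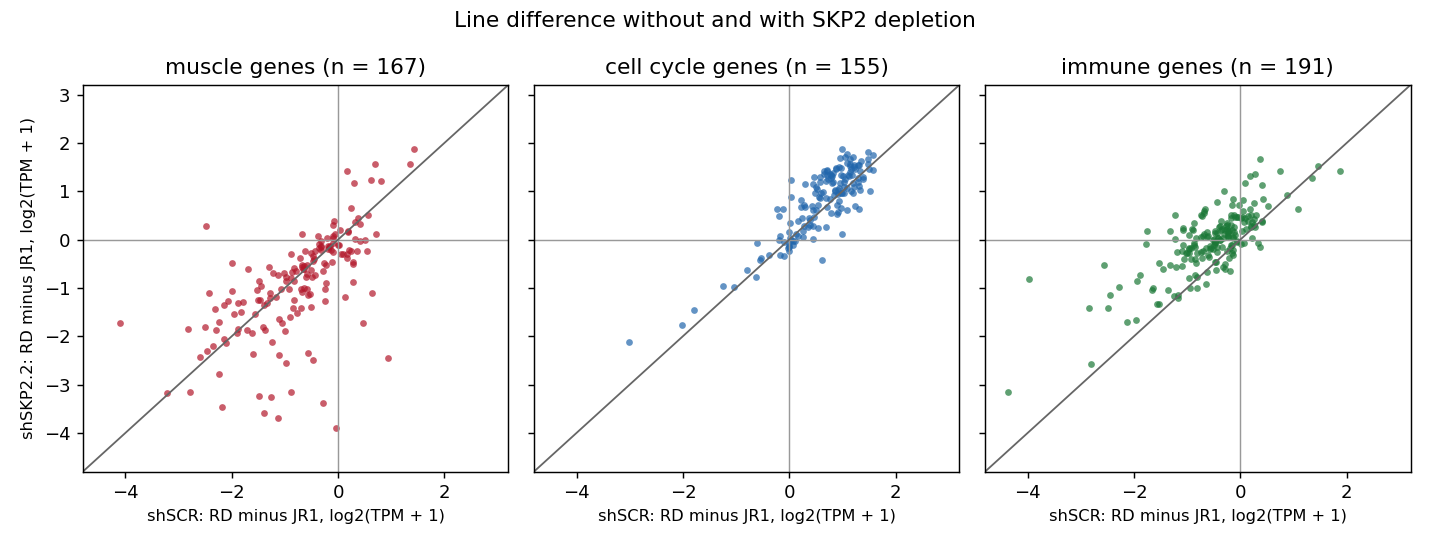
Line difference, RD minus JR1 on the log2(TPM + 1) scale, with shSCR (x axis) and with shSKP2.2 (y axis) for the 167 muscle, 155 cell cycle and 191 immune genes compared, with a line where both are equal. Points above the line lie further toward RD with shSKP2.2 than with shSCR, which holds for 88 muscle genes, 104 cell cycle genes and 165 immune genes.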

How the data were processed

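RNA was taken from RD and JR1 cells infected with shSCR or shSKP2.2, with poly-A selection and paired reads of 150 bases, giving 1 library for each of the 4 groups. The authors used STAR 2.7.9a on GRCh38 and then RSEM 1.3.2, and each gene has a deposited TPM for every library but no count. RSEM shares reads that match several genes among them by maximum likelihood, so values of near-identical genes are estimates.

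From the deposited TPM, 3017 short structural RNA genes were removed by symbol and the rest rescaled to a total of 1e+06. Differences were taken on the log2(TPM + 1) scale over genes whose mean in the pair of libraries reached 1 TPM. With 1 library per group no test was run, and the limit of 1 on the log2 scale (2-fold) is a size, not a significance. Lists were described by counts and medians beside all genes, and a median was given for lists of at least 5 compared genes. The genes to compare and the lists were chosen with earlier results of these data known. The S phase and G2/M lists are those of a single-cell package, and the other lists, 27 in all beside the markers, were written from general knowledge. All 670 list symbols were found, RIGI under its older symbol DDX58.

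Named genes were SKP2, CDKN1A, CDKN1B, CDKN1C, MYOD1, MYOG, MYH2, MYH3, MYH8 and MKI67, the 3 members of each list most above in each line, any member of lists of up to 20 genes, and the 15 widest differences each way among all genes whose mean reached 10 TPM. The other genes named in longer lists or drawn in plots were chosen after their values were seen. Promoters were RefSeq windows of GRCh38.p14, 1 per gene (the first start listed), found for 452 of 608 symbols of the muscle, cell cycle and immune lists. Alternatives were the TPM as deposited, RMRP, RPPH1 and transfer RNA genes kept, centring on the median, a pseudocount of 0.1 TPM, a minimum of 5 TPM, no minimum, and a limit of 1.5-fold. The scripts were tested on simulated data. A few list members counted in the totals are not reported here by name. The software was matplotlib 3.10.9, scipy 1.17.1, pandas 2.3.3 and numpy 2.4.6 under Python 3.11.15.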

Additional observations from a re-analysis of the deposited data

Results flagged for a closer look

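For 7 listed genes the line difference lay at least 0.5 on one side of 0 with shSKP2.2 and at least 0.5 on the other side with shSCR. With 1 library per group these reversals were not tested. COX6A2, a muscle subunit of cytochrome oxidase, had a difference of -2.44 with shSKP2.2 and 0.94 with shSCR, on levels from 0 to 4.44 TPM, and ACTA1 had -1.11 and 0.63 on levels from 0.57 to 5.63 TPM. Both muscle genes were thus above in JR1 with shSKP2.2 and above in RD with shSCR. The other 5 are immune genes that were above in RD with shSKP2.2 and above in JR1 with shSCR. IRF7, a factor that amplifies the interferon response, had a difference of 0.51 with shSKP2.2 and -0.74 with shSCR. OAS3, which senses double-stranded RNA, had 0.60 and -0.69, and HELZ2, an interferon-stimulated helicase, had 0.64 and -0.66. Of the chemokines, CXCL16 had 0.55 and -0.69, and CXCL3 had 0.51 and -1.22.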

How the results depend on the processing

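No paired analysis was possible because each group is 1 library and the labels carry no replicate numbers, and no library could be left out. Removal of mitochondrial genes gave no other value, since the tables hold 0 rows of the mitochondrial genome. The depth of the libraries is unknown, so the precision of low TPM cannot be given. Rescaling multiplied the TPM kept by 3.24 in RD shSKP2.2 and by 3.58 in JR1 shSKP2.2. Beside the rescaled values, the deposited TPM thus carry a fixed offset toward RD. The added 1 and the minimum of 1 TPM also weigh more on the deposited scale. How far each of these moved a value, and why values moved in the other settings, was not tested. With the TPM as deposited, genes higher in JR1 fell in number to 362, muscle genes higher in JR1 to 47, and immune genes to 4 in RD and 6 in JR1, over 12745 compared genes in place of 15315. List medians there were -0.37 for myogenic factors, 0.027 for inhibitory factors, -1.65 for the thick filament, -0.82 for the thin filament, -0.84 for the Z-disc, -0.69 for excitation-contraction coupling, -0.094 for fusion, -0.47 for energy metabolism, 0.13 for CDK inhibitors, 0.86 for SCF and APC/C, 0.053 for MYC and MAX, 0.15 for interferon-stimulated effectors, 0.030 for interferon receptors, 0.20 for chemokines, 0.19 for NF-kB and 0.15 for complement. Of 99 named genes past the limit 16 fell short of it there, MYOG, MEF2A, HES1 and IFI44L among them. With RMRP, RPPH1 and transfer RNA genes kept, the thick filament median was -1.28 and MYOG, IFNAR2 and PDCD1LG2 fell short of the limit. Centring on the median put 5 cell cycle genes past the limit in JR1, moved that in RD to 67, and turned the medians of interferon-stimulated effectors and cytokines below 0. The latter also changed sign, with those of chemokines and complement, under a minimum of 5 TPM and under none. A pseudocount of 0.1 TPM gave medians of -1.88 for the thick filament, -1.24 for the thin filament, -0.76 for energy metabolism and -0.31 for chemokines. A minimum of 5 TPM gave 624 genes higher in RD and 490 in JR1, 4 immune genes higher in RD, and medians of -1.90 for the thick filament, -0.78 for excitation-contraction coupling, -0.89 for the synapse and 0.17 for chemokines. With no minimum the medians were -0.74 for the thick filament, -0.75 for excitation-contraction coupling, 0.82 for cyclins and CDKs and 0.011 for chemokines. A limit of 1.5-fold gave 2428 genes higher in RD and 1660 in JR1, with 7 cell cycle genes higher in JR1 and 24 and 30 immune genes higher in RD and JR1. The S phase and G2/M medians stayed above 0.9 and 1.3, and those of the 3 sarcomere lists below 0, in each of these settings that gives a median.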

Other observations

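Of the 15 widest differences in each direction over all genes after SKP2 depletion, 15 in RD and 12 in JR1 were also past the limit on the same side with shSCR. COL6A3, a chain of collagen VI, stood at 0.32 TPM in RD shSKP2.2 and 139.8 TPM in JR1 shSKP2.2, and at 2.17 and 241.8 TPM with shSCR. IGFBP3, which binds insulin-like growth factors, stood at 15.4 and 272.1 TPM with shSKP2.2 and at 19.1 and 358.7 TPM with shSCR, and VGF, a secreted neuropeptide precursor, at 44.9 and 1257 TPM with shSKP2.2 and at 17.9 and 1544 TPM with shSCR. On the RD side, GFRA1, a receptor of glial neurotrophic factor, stood at 86.7 TPM in RD and 0.79 TPM in JR1 with shSKP2.2 and at 127.6 and 0.54 TPM with shSCR. ALDH1A2, which makes retinoic acid, stood at 40.8 TPM in RD shSKP2.2 and 48.2 TPM in RD shSCR and at no more than 0.06 TPM in JR1. DHRS3, which reduces retinal and so limits retinoic acid, stood at 37.5 and 0.57 TPM with shSKP2.2 and at 114.8 and 1.43 TPM with shSCR.

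A few of the widest differences were much narrower in the shSCR libraries. MYBPC1 is described above, and GJA5, a gap junction protein, stood at 1.00 TPM in RD and 25.55 TPM in JR1 with shSKP2.2 and at 0.22 and 0.30 TPM with shSCR. KLHL31, a kelch protein of muscle, stood at 0.94 and 30.8 TPM with shSKP2.2 and at 0.31 and 2.36 TPM with shSCR, still past the limit in JR1. SPRR2D, known from the cornified skin envelope, was listed at 0 in RD in both conditions, at 101.4 TPM in JR1 shSKP2.2 and at 0.90 TPM in JR1 shSCR. SPRR2D has near-identical neighbours, so its value is uncertain. MEST, an imprinted gene of the mesoderm, was past the limit in RD in both conditions, at 283.4 TPM in RD and 15.8 TPM in JR1 with shSKP2.2 and at 391.5 and 123.7 TPM with shSCR. MAGEA9 and GAGE12J, cancer-testis genes of the X chromosome listed at 0 in JR1 shSKP2.2, share reads with close copies, and their values are uncertain.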
